A study of Mus musculus with 6 samples.

Results

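Expression was described for 9 genes that encode transcription factors of the osteoblast lineage, namely Runx2, Sp7, Dlx3, Dlx5, Dlx6, Msx1, Msx2, Twist1 and Twist2. They were taken by name, although earlier results of these data were known, and all 9 were found among the 55471 genes of the deposited count table. Poly(A) RNA was sequenced from primary osteoblasts of 3-day-old C57BL/6 mice, isolated from the calvaria (the skull cap), with 3 libraries per genotype. One genotype was wild type (WT). The other was a conditional knockout of all 3 Tet genes (TCKO), homozygous for floxed Tet1 (fl/fl), floxed Tet2 (fl/fl) and floxed Tet3 (fl/fl), with Prx1-Cre. TET enzymes oxidise methylated cytosine in DNA. Prx1-Cre is active in mesenchyme of the limb and of part of the skull, so cells of other origin in a culture keep their alleles. The sources do not say whether the WT mice carried floxed alleles without Cre.

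RUNX2 binds DNA together with its partner CBFB and is required for mesenchymal cells to become osteoblasts, and SP7 (osterix) acts after it in the same lineage. DLX and MSX proteins are homeodomain factors that bind related DNA sequences. DLX5 and DLX6 are known to promote Runx2 and Sp7 expression, while MSX2 is known to favour the growth of skull progenitors and can counteract DLX5. TWIST1 and TWIST2 are basic helix-loop-helix factors that hold osteoblast progenitors back by binding RUNX2. Heterozygous loss of RUNX2 or TWIST1 disturbs closure of the skull sutures and fontanels.

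Some facts of the libraries touch every value below. Total counts ran from 8019999 to 10177214 per library, and 3 counts, the level that a count of 0 still allows, were worth 0.299 to 0.372 CPM (counts scaled to library size, with TMM factors). That floor covers counting error only. Replicates 1 and 2 of a genotype were close to each other (chi-square per degree of freedom 1.69 in WT and 2.04 in TCKO) and far from replicate 3 (16.5 to 23.3). TCKO replicate 3 alone had the Xist and Ddx3y pattern of female cells. Of the targeted genes, counted over all exons, Tet1 was lower in the libraries labelled TCKO (log2 fold change -0.97), Tet2 was at -0.14 (edgeR adjusted p = 0.545), and Tet3 was higher (0.51). Directions therefore rest on the labels. The labels do not say that libraries came from separate animals or cultures, so p-values measure the spread between these libraries, which may be technical.

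The label of the cells was checked against marker genes. Osteoblast markers (10 genes) summed to 40440 to 43440 CPM in WT and 22120 to 36960 CPM in TCKO. Col1a1 alone averaged 22281 CPM in WT and 14548 CPM in TCKO, so the sum mainly follows this collagen gene. Bglap had 0 to 2 counts, Bglap2 0 to 5 counts and Ibsp 1.94 to 7.83 CPM per library. Of 8 osteoblast markers tested, 4 were lower and 1 (Spp1) was higher (2 and 0 with a block on the sums of replicates 1 and 2). Over all 13826 tested genes 8.63% were lower and 9.07% higher, or 11.5% and 12% with the replicate number as a block. With replicates 1 and 2 summed 386 genes passed in either direction, and 1150 with a block on the sums. Osteocyte markers (5 genes) reached at most 1.61 CPM in any library, and 3 of them, Sost, Mepe and Fgf23, had 0 counts in all 6. Chondrocyte markers (9 genes) were abundant, at 6384 to 8236 CPM in WT and 735 to 1007 CPM in TCKO, and all 9 were lower in TCKO (2 with replicates 1 and 2 summed, 8 with a block on the sums). Haematopoietic markers (8 genes) summed to 400.2 to 711 CPM in WT and 162 to 542 CPM in TCKO, with 2 lower by edgeR, 7 lower when the replicate number was a block, and 3 lower when that block was fitted to the sums of replicates 1 and 2. Markers of osteoclasts and endothelium stayed below 6.33 CPM in every library. Muscle markers (5 genes) went the other way, at 7.57 to 24.7 CPM in WT and 30.1 to 80.4 CPM in TCKO, with 1 of 2 tested higher. Lower sums in TCKO were found for glial markers (4 genes, 18.0 to 24.4 against 3.35 to 3.60 CPM, 1 of 2 tested lower) and epithelial markers (5 genes, 1.69 to 5.38 against 0 to 0.228 CPM, 1 of 1 tested lower). Adipocyte markers (5 genes) summed to 23.9 to 32.6 CPM in WT and 11.6 to 18.9 CPM in TCKO. In bulk RNA a smaller number of cells of a type cannot be told apart from less RNA per cell, and the part of these markers in the results below was not tested.

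To place the factors on a common scale, levels were compared per length, as RPKM (counts scaled to library size and exon length). In WT, Msx2 (70.9 RPKM) and Twist1 (70.1 RPKM) were the most abundant, followed by Sp7 (49.2 RPKM), Msx1 (21.9 RPKM) and Runx2 (10.8 RPKM). Dlx5 (6.90 RPKM) and Dlx6 (2.24 RPKM) were lower. Twist2 (0.376 RPKM, or 1.19 CPM) and Dlx3 (0.315 RPKM, or 0.822 CPM) were the lowest, with 5 to 15 counts per WT library. The libraries of Msx2 and Twist1, of Twist1 and Sp7, and of Twist2 and Dlx3 overlapped, while the other neighbours in this order did not. Among the tested genes, 94.7% had a lower WT level than Msx2, 94.6% a lower one than Twist1 and 66.9% a lower one than Runx2.

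In TCKO the order was Msx2 (100.1 RPKM), Twist1 (85.1 RPKM), Msx1 (18.7 RPKM), Sp7 (16.2 RPKM), Runx2 (7.93 RPKM), Dlx5 (5.49 RPKM), Dlx6 (1.97 RPKM), Twist2 (0.533 RPKM) and Dlx3 (0.297 RPKM). Msx1 and Sp7 exchanged places, and their libraries overlapped, as did those of Msx2 and Twist1. The spread within a genotype differed widely between factors. The coefficient of variation of CPM was 2.91% in WT and 1.5% in TCKO for Runx2, against 59.5% and 75.2% for Sp7.

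**Figure D1:**
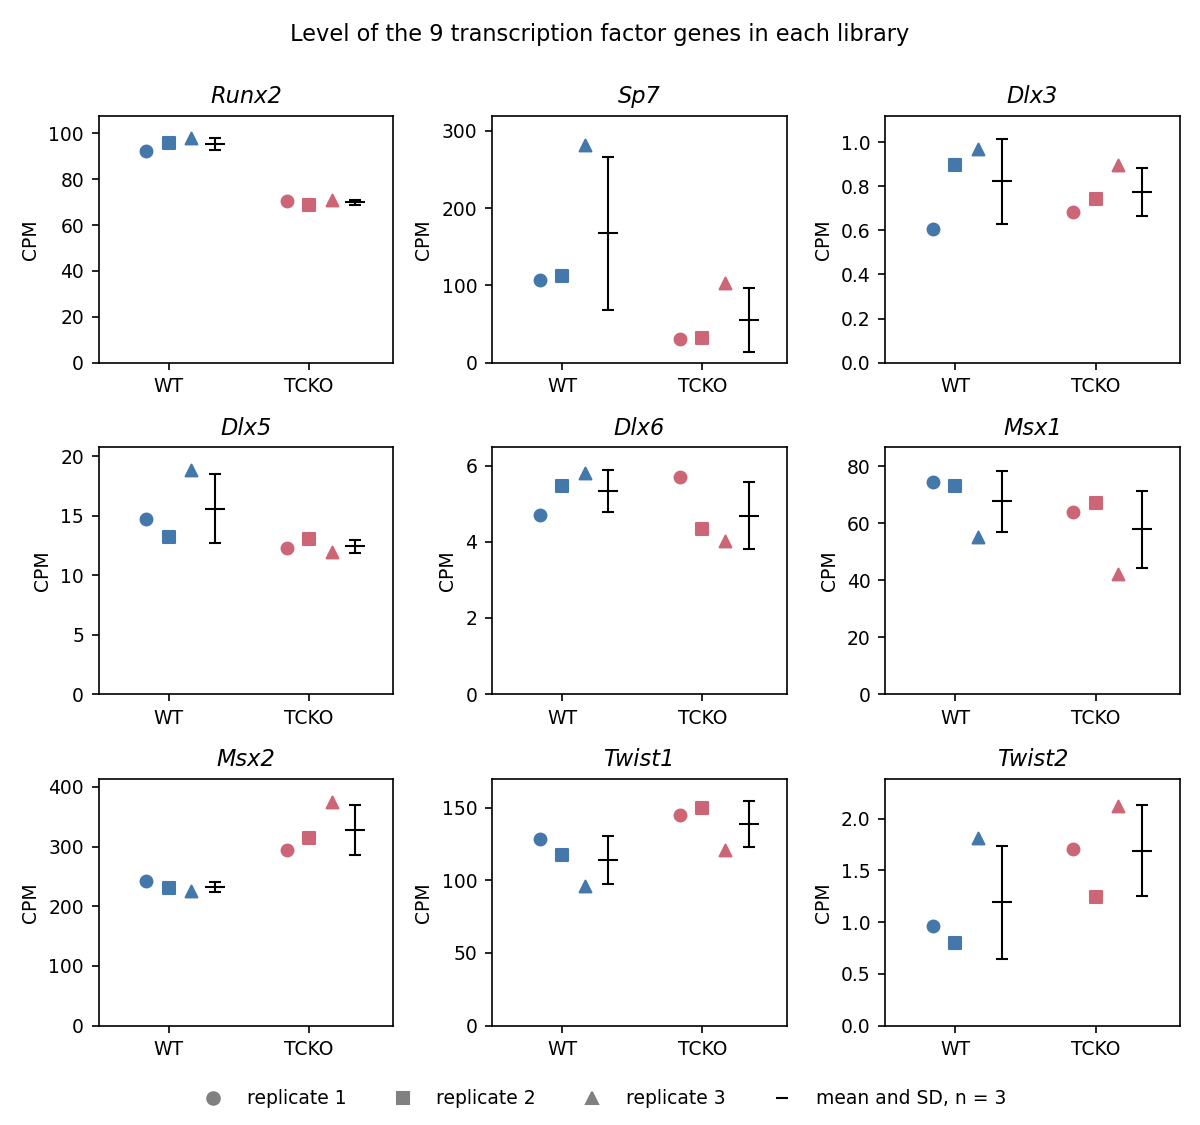
Level of each of the 9 factors in CPM on a linear axis from 0 (own scale per gene), by genotype. Points are single libraries with a symbol for each replicate number, and bars are the mean and SD of 3 libraries. Runx2 and Msx2 separate by genotype with little spread, and Sp7 is highest in replicate 3 of both genotypes (282 and 103 CPM).

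Whether these factors differed between the genotypes was then tested with edgeR over all 13826 genes that passed the filter on low counts. Of the 9 factors 8 were tested, and Dlx3 was not. At an adjusted p under 0.05, 1 factor was lower in TCKO (Runx2) and 1 was higher (Msx2), where 8.63% of all tested genes were lower and 9.07% higher. Neither difference exceeded 2-fold, whereas 6.35% of all tested genes passed with a difference over 2-fold (3.19% lower and 3.16% higher). In 4 of the 8, Runx2, Sp7, Dlx5 and Msx2, the CPM of the genotypes did not overlap, which was so for 38.3% of all tested genes. Over the 8 tested factors the median log2 fold change was -0.21 and the median absolute log2 fold change 0.39, against 0 and 0.22 over all tested genes. Deviations from the group means correlated between the replicate 3 libraries of both genotypes (0.347). Those of replicates 1 and 2 correlated across numbers (0.188 and 0.225) as well as within them (0.204 and 0.214). The labels state no pairing, and TCKO replicate 3 alone had the female pattern. With this limit, the fit with the replicate number as a block is given where it changed a call. It added Sp7 as lower and Twist1 as higher, with 11.5% of all tested genes lower and 12% higher.

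**Figure D2:**
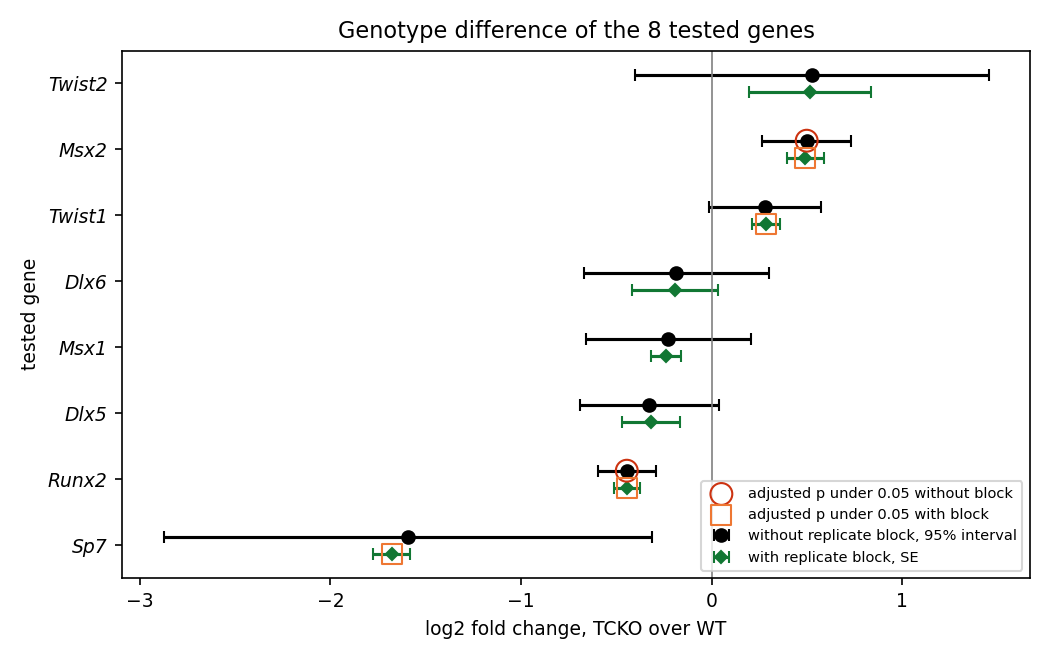
Log2 fold change (TCKO over WT) of the 8 tested factors, without the replicate block (black circles, 95% confidence interval) and with it (green diamonds, SE). Rings and squares mark an adjusted p under 0.05 in the respective fit. Runx2 and Msx2 carry both marks, Sp7 and Twist1 the square alone, and the interval of Sp7 is the widest of the negative values.

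Runx2, the lineage's first essential factor (ENSMUSG00000039153, chromosome 17, 44495987 to 44814797, minus strand, GRCm38), had 765, 962 and 810 counts in the WT libraries, in order of replicate number here and below, and 619, 555 and 633 in those of TCKO. These were 92.4, 95.8 and 97.9 CPM in WT and 70.5, 68.8 and 70.8 CPM in TCKO. Every TCKO library lay below every WT library, and replicate 3 did not stand apart. The means were 95.4 ± 2.78 and 70.0 ± 1.05 CPM (SD, n = 3). The WT level was 1.36-fold the TCKO level, a log2 fold change of -0.45 ± 0.07 (SE, 95% interval -0.60 to -0.29, edgeR adjusted p = 0.00397). Replicates 1 and 2 alone gave a log2 difference of -0.43 and replicate 3 one of -0.47. Leaving out any 1 library kept the adjusted p between 0.00441 and 0.0256. With the counts of replicates 1 and 2 of a genotype summed, which leaves 2 samples against 2, the log2 fold change was -0.45 and the edgeR adjusted p 0.102, or 0.0580 with a replicate block added. Runx2os1 overlaps Runx2 exons on the opposite strand over 519 bp and had 3 to 5 counts, far fewer than Runx2 itself. Whether counting used the strand is not stated, so reads in this overlap may be missing from the Runx2 counts.

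Because TET enzymes act on methylated CpG sites and RUNX2 can bind near its own start site, 1 annotated start of Runx2 is shown. Runx2 has 13 annotated transcripts, 9 of them coding, and any other start sites of the gene were not examined. Promoter windows of 300 bases, 250 before and 50 from the start site on, were taken from RefSeq (GRCm38.p6) and were found for 5 of the 9 factors. The Runx2 window lies at chr17:44814578-44814877 on the minus strand. Capitals mark each match to ACCACA, the core sequence bound by RUNX proteins, searched on both strands (its complement is TGTGGT).
Runx2: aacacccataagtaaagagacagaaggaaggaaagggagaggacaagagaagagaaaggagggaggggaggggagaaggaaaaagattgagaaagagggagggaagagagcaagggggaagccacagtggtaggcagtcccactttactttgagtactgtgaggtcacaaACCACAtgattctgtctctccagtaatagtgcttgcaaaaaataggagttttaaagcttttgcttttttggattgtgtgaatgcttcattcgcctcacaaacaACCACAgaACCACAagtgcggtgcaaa
The window held 3 such matches, 80 bases before and 23 and 31 bases after the start site, and none overlapped another. At least 1 match was found in 16.8% of all 32841 windows in the RefSeq table, and 3 or more in 0.18%. The window held 2 CpG, against a median of 7, and 14.1% of all windows held fewer. A match is a run of letters and was not tested for binding, and methylation was not measured in these libraries.

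Sp7, which drives committed progenitors to mature osteoblasts (ENSMUSG00000060284, chromosome 15, 102356606 to 102367182, minus strand), had the largest difference among the 9 factors and also the largest coefficient of variation. It had 890, 1123 and 2332 counts in the 3 WT libraries and 274, 252 and 922 in those of TCKO, or 107.5, 111.8 and 282 CPM in WT and 31.2, 31.3 and 103 CPM in TCKO. Replicate 3 was the highest library of both genotypes, and TCKO replicate 3 lay just below WT replicate 1, so the genotypes did not overlap in CPM. On the log2 scale replicate 3 exceeded the mean of replicates 1 and 2 by 1.36 in WT and by 1.72 in TCKO, where 3.8% and 5.5% of all tested genes differed over 2-fold in either direction. The means were 167 ± 99.5 and 55.2 ± 41.5 CPM (SD, n = 3). The WT level was 3.02-fold the TCKO level, a log2 fold change of -1.59 ± 0.55 (SE, 95% interval -2.87 to -0.31), which did not pass over all genes (edgeR adjusted p = 0.0877). With the replicate block it was -1.68 ± 0.10 (adjusted p = 0.000152).

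The difference in Sp7 was in the same direction within both sets of libraries, -1.80 on the log2 scale within replicates 1 and 2 and -1.45 within replicate 3. Without TCKO replicate 3 the log2 fold change was -2.41 (edgeR adjusted p = 0.00940), and without any other single library the adjusted p lay between 0.120 and 0.233. Without WT replicate 3 the log2 fold change was -0.99. After summing replicates 1 and 2 the edgeR adjusted p was 0.305, and 0.00595 for the sums with a block. With no filter beyond 1 count the adjusted p was 0.00137. The summed chondrocyte markers were 8236 CPM in WT replicate 3 against 6384 and 6784 CPM in the other WT libraries, and 735 CPM in TCKO replicate 3 against 927 and 1007 CPM. Muscle and glial sums were likewise higher in WT replicate 3 and lower in TCKO replicate 3. Haematopoietic sums were lower in replicate 3 of both genotypes (400.2 against 698 and 711 CPM in WT, 162 against 511 and 542 CPM in TCKO). So were adipocyte and osteoblast sums. The part of these markers in the Sp7 values was not tested.

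The ratio of Sp7 to Runx2 per length, a measure that does not depend on library size, was 3.03, 3.04 and 7.49 in WT and 1.15, 1.18 and 3.79 in TCKO. TCKO replicate 3 lay above 2 of the WT libraries. The mean log2 ratio differed by -1.25 between the genotypes, a difference that did not pass an exact two-sided permutation test (p = 0.3, adjusted over 4 ratios 0.6). With 3 libraries against 3 the smallest p this test allows is 0.1.

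**Figure D3:**
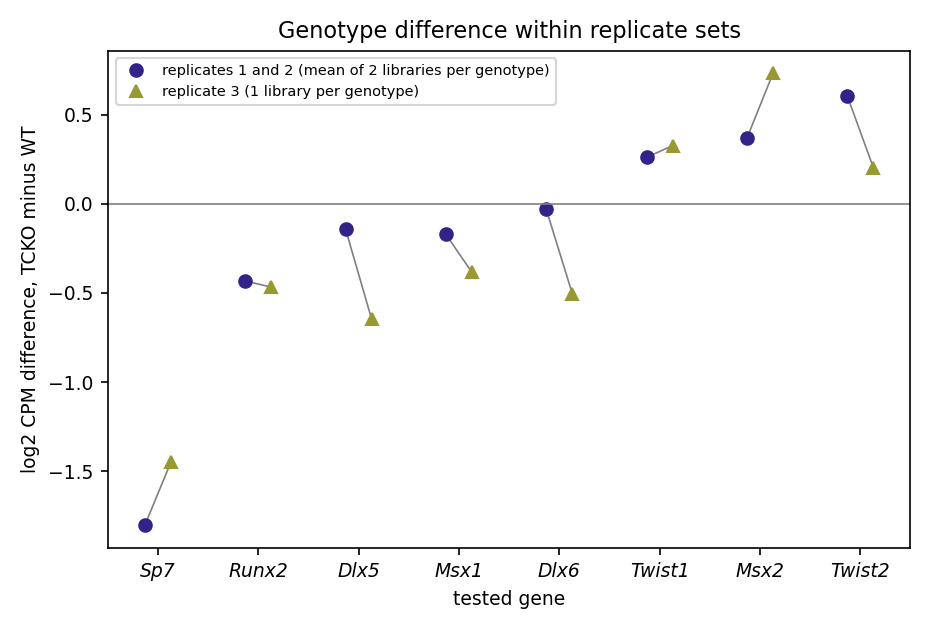
Log2 CPM difference (TCKO minus WT) of the 8 tested factors within replicates 1 and 2 (circles, mean of 2 libraries per genotype) and within replicate 3 (triangles, 1 library per genotype, no test). All 8 factors keep their sign in both sets, with Sp7 at -1.80 and -1.45 and Dlx6 at -0.03 and -0.50.

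In both sets of libraries 8 of the 8 tested factors had the same sign, which was so for 69.2% of all tested genes. Among the DLX factors, which act upstream of Runx2 and Sp7 in skull and limb, 0 of 2 tested genes passed by edgeR or DESeq2 (adjusted p of 0.344 and 0.777), and 0 had an unadjusted edgeR p under 0.05. Dlx5 (ENSMUSG00000029755, chromosome 6, 6877805 to 6882085, minus strand) had 122, 133 and 156 counts in the 3 WT libraries and 108, 105 and 107 in those of TCKO, or 14.7, 13.2 and 18.9 CPM against 12.3, 13.0 and 11.96 CPM. All TCKO libraries lay below the lowest WT library, by a margin that was small beside the spread in WT. The log2 fold change was -0.33 ± 0.16 (SE, 95% interval -0.69 to 0.04, edgeR adjusted p = 0.198). It was -0.14 within replicates 1 and 2 and -0.65 within replicate 3.

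Dlx6, the neighbour of Dlx5 on chromosome 6 (ENSMUSG00000029754, 6863334 to 6868568, plus strand), had 39, 55 and 48 counts in the 3 WT libraries and 50, 35 and 36 in those of TCKO. The genotypes overlapped, since TCKO replicate 1 (5.69 CPM) lay among the WT libraries (4.71 to 5.80 CPM). Its log2 fold change was -0.18 ± 0.21 (SE, 95% interval -0.67 to 0.30, edgeR adjusted p = 0.588). The Dlx5 to Dlx6 ratio was 2.54 to 3.41 in the WT libraries and 2.27 to 3.15 in the TCKO libraries, a difference that did not pass the exact permutation test (p = 0.5, adjusted 0.6). Dlx6os2 overlaps Dlx6 exons on the opposite strand over 104 bp and had 0 counts in every library. Whether counting used the strand is not stated, so reads in this overlap may be missing from the Dlx6 counts and ratio. Dlx6os1, a non-coding RNA gene that spans Dlx6 on the opposite strand without exon overlap, had 25, 28 and 28 counts in the 3 WT libraries and 13, 18 and 16 in those of TCKO. All its TCKO libraries lay below all WT libraries, at a log2 fold change of -0.74 ± 0.26 that did not pass (edgeR adjusted p = 0.0899).

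Dlx3, a DLX factor of skin, hair, tooth and bone (ENSMUSG00000001510, chromosome 11, 95120119 to 95125296, plus strand), had 5, 9 and 8 counts in the 3 WT libraries and 6, 6 and 8 in those of TCKO. All 6 libraries lay above the floor of 3 counts, and the genotypes overlapped, at 0.822 ± 0.192 CPM (WT) and 0.774 ± 0.109 CPM (TCKO, both SD, n = 3). It was removed by the filter. With no filter beyond 1 count its log2 fold change was -0.09, with a 95% interval from -1.19 to 1.01. A difference of about 2-fold in either direction thus lay within the interval.

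The fold changes of the MSX pair had opposite signs. Msx2, a factor of skull growth (ENSMUSG00000021469, chromosome 13, 53466884 to 53473074, minus strand), had 2004, 2307 and 1864 counts in the 3 WT libraries and 2588, 2539 and 3353 in those of TCKO. These were 242, 229.7 and 225 CPM in WT and 295, 315 and 375 CPM in TCKO. Every TCKO library lay above every WT library, and TCKO replicate 3 was the highest. The mean rose from 232 ± 8.69 to 328 ± 41.7 CPM (SD, n = 3). The level rose 1.41-fold, a log2 fold change of 0.50 ± 0.10 (SE, 95% interval 0.27 to 0.73, edgeR adjusted p = 0.0135), at 0.37 within replicates 1 and 2 and 0.73 within replicate 3. Without WT replicate 2 the value was 0.49 with an adjusted p of 0.0648. With replicates 1 and 2 summed it was 0.56 with an adjusted p of 0.123, or 0.0723 with a replicate block added.

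Msx1, which acts with Msx2 in tooth, palate and skull (ENSMUSG00000048450, chromosome 5, 37820485 to 37824583, minus strand), had 618, 734 and 458 counts in the 3 WT libraries and 563, 541 and 379 in those of TCKO. The levels were 74.7, 73.1 and 55.4 CPM in WT and 64.1, 67.1 and 42.4 CPM in TCKO. Replicate 3 was the lowest library of both genotypes, and WT replicate 3 lay below 2 of the TCKO libraries. Its log2 fold change of -0.23 ± 0.19 (SE, 95% interval -0.66 to 0.20) did not pass (edgeR adjusted p = 0.446, or 0.0730 with the replicate block).

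Set against each other per length, Msx1 to Msx2 gave ratios of 0.327, 0.337 and 0.260 in WT and 0.230, 0.226 and 0.120 in TCKO. All 3 TCKO ratios lay below all 3 WT ratios, a mean log2 difference of -0.73. The exact two-sided permutation p was 0.1, the smallest that 3 libraries against 3 allow, and 0.4 after adjustment over the 4 ratios.

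The windows of the 4 other factors were richer in CpG than this Runx2 window, with 29 CpG in Msx1, 22 in Msx2, 27 in Twist1 and 25 in Twist2. Of all windows, 76.9% held fewer CpG than that of Msx2. The Msx2 window is shown as the counterpart of the Runx2 window, since these 2 genes differed in opposite directions. It lies at chr13:53472731-53473030 on the minus strand, and capitals mark each CpG.
Msx2: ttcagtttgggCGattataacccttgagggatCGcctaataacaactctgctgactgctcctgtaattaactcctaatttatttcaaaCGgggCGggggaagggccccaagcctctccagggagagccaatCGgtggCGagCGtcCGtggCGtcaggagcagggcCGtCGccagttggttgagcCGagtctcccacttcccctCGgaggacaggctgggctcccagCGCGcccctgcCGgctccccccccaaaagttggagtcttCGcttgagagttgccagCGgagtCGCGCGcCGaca
The Msx2 window was 61.0% G and C with an observed to expected CpG ratio of 0.789. These were 45.3% and 0.143 for the 1 Runx2 window, and the median ratio over all windows was 0.384. None of these 4 windows held ACCACA or TGTGGT. Msx2 held 1 copy of TAATTA, 187 bases before the start site, and TAATTA or TAATTG on either strand was found in 12.4% of all windows. The E-boxes bound by TWIST proteins were searched as CATATG and, on both strands, as CAGATG. None of the 5 windows held either, and 20.3% of all windows did. No match says only that these letters are not in this window.

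Twist1, the main TWIST gene of the skull sutures (ENSMUSG00000035799, chromosome 12, 33957671 to 33959829, plus strand), had 1065, 1180 and 796 counts in the 3 WT libraries and 1273, 1209 and 1081 in those of TCKO. The levels were 128.7, 117.5 and 96.2 CPM in WT and 145, 149.9 and 120.9 CPM in TCKO. Replicate 3 was the lowest of both genotypes, and TCKO replicate 3 lay below WT replicate 1, so the genotypes overlapped. The log2 fold change was 0.28 ± 0.13 (SE, 95% interval -0.01 to 0.57, edgeR adjusted p = 0.171). With the replicate block it was 0.28 ± 0.07 with an adjusted p of 0.0307, and with replicates 1 and 2 summed and a block it was 0.30 with an adjusted p of 0.150. Replicates 1 and 2 alone differed by 0.26 and replicate 3 by 0.33 on the log2 scale.

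Twist2 (ENSMUSG00000007805, chromosome 1, 91801461 to 91848028, plus strand), the close relative of Twist1 in dermis and bone, had 8, 8 and 15 counts in the 3 WT libraries and 15, 10 and 19 in those of TCKO. These were 0.967, 0.797 and 1.81 CPM in WT and 1.71, 1.24 and 2.12 CPM in TCKO, and the genotypes overlapped. The log2 fold change was 0.53 ± 0.40 (SE, 95% interval -0.40 to 1.45, edgeR adjusted p = 0.415), so a rise of over 2-fold and a small decrease were both within the interval. Gm29100 overlaps Twist2 exons (3174 bp in all) on the opposite strand over 1477 bp and had 0 to 3 counts. Whether counting used the strand is not stated, so reads in this overlap may be missing from the Twist2 levels and ratios. Twist1 exceeded Twist2 per length by 103.5-fold to 287.6-fold in WT and by 110.9-fold to 235.7-fold in TCKO, and the difference in this ratio did not pass the exact permutation test (p = 0.6, adjusted 0.6).

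To see which genes resembled Runx2 and Sp7 over the 6 libraries, the centred log2 CPM profiles of 9261 tested genes with a mean of at least 100 counts were compared with theirs. The 3 nearest to Runx2, by root-mean-square log2 difference, were the mechanosensitive channel gene Piezo1 (0.036), Pigs (0.038) and Ppp6r2 (0.038). Those nearest to Sp7 were the bHLH factor gene Atoh8 (0.243), the FGF receptor gene Fgfr3 (0.273) and Scube3 (0.280). These distances were not scaled to a gene's own spread, which was small for Runx2 and wide for Sp7. They were therefore not compared between these factors.

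Genes that work with these factors were examined as lists, each read beside the 8.63% of tested genes that were lower and the 9.07% that were higher. The lists were chosen with earlier results of these data known, so their counts are no independent test. The lists comprised family relatives, RUNX2 partners, RUNX2 repressors, partners of TWIST proteins, other lineage factors and target genes. Together 32 of their genes passed, and 8 did with replicates 1 and 2 summed, against 2447 and 386 of all 13826 tested genes. Of 12 family relatives 4 were tested, with 1 lower and 1 higher. Runx3, a RUNX gene active in cartilage and immune cells, fell from 23.8 ± 2.13 to 6.57 ± 0.753 CPM (SD, n = 3), for a log2 fold change of -1.85 ± 0.14 (SE, edgeR adjusted p = 0.000222). Runx1, the RUNX gene of blood formation that is also expressed in skeletal progenitors, rose from 63.5 ± 8.37 to 98.1 ± 16.7 CPM, by 0.63 ± 0.15 (SE) on the log2 scale (edgeR adjusted p = 0.0229). The call of Runx1 was lost without WT replicate 1 or 2 or TCKO replicate 1 or 2, with adjusted p-values from 0.0846 to 0.0972. The log2 difference of Runx1 was 0.87 within replicates 1 and 2 but 0.11 within replicate 3. With replicates 1 and 2 summed it did not pass (edgeR adjusted p = 0.253, or 0.192 with a block). The fold changes of the 3 RUNX genes thus had both signs, with that of Runx1 mainly from replicates 1 and 2.

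Of 15 partners and coactivators of RUNX2, all tested, 2 were lower and 2 higher, with a median log2 fold change of -0.02. Atf4, needed for late osteoblast function, was at -0.30 ± 0.08 (SE, edgeR adjusted p = 0.0428), and its call was lost on leaving out 5 of the 6 libraries singly (adjusted p up to 0.137, without WT replicate 2). The coactivators Wwtr1 (TAZ) and Yap1 were higher by 0.39 and 0.35 (edgeR adjusted p = 0.0146 and 0.0220). Wwtr1 lost its call without TCKO replicate 1 or 2 (adjusted p = 0.0540 and 0.0510) and Yap1 without WT replicate 1 or TCKO replicate 1 or 2 (0.0868 to 0.0900). Cbfb, the DNA-binding partner of RUNX2, was named after its values were seen. It was at 0.20 ± 0.09 (edgeR adjusted p = 0.194), and at 0.30 (0.0169) without TCKO replicate 3.

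Of 17 repressors and degraders of RUNX2, all tested, 5 were lower and 1 was higher, with a median log2 fold change of -0.002. With the replicate block 6 were lower and 3 higher, and with replicates 1 and 2 summed and a block 3 and 1. Hivep3 (Schnurri-3), an adaptor in RUNX2 degradation, fell from 18.5 ± 2.57 to 7.14 ± 1.62 CPM (SD, n = 3), for a log2 fold change of -1.37 ± 0.20 (SE, edgeR adjusted p = 0.00333). Smurf2, a ubiquitin ligase of the SMAD pathway, fell from 191 ± 5.33 to 96.8 ± 3.38 CPM, by 0.98 on the log2 scale (adjusted p = 0.000142). Trps1, a zinc finger repressor that binds RUNX2, was lower (-0.70 ± 0.13, adjusted p = 0.00940), and the corepressor Tle3 was higher (0.55 ± 0.10, adjusted p = 0.00797).

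Of 9 genes for E proteins, ID proteins and HAND factors, the dimer partners and relatives of TWIST proteins, 7 were tested, with 1 lower and 1 higher. The E protein gene Tcf4 was at -0.54 ± 0.14 (edgeR adjusted p = 0.0358) and Tcf3 at 0.34 ± 0.07 (adjusted p = 0.0182). Tcf4 lost its call without WT replicate 1 or 2 or TCKO replicate 2 (adjusted p from 0.112 to 0.131), and Tcf3 without WT replicate 2 or TCKO replicate 2 (0.0847 and 0.0733). With the replicate block 3 were lower and 1 higher, and with replicates 1 and 2 summed and a block 1 and 0. Without TCKO replicate 3, the counts were 4 lower and 1 higher.

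**Figure D4:**
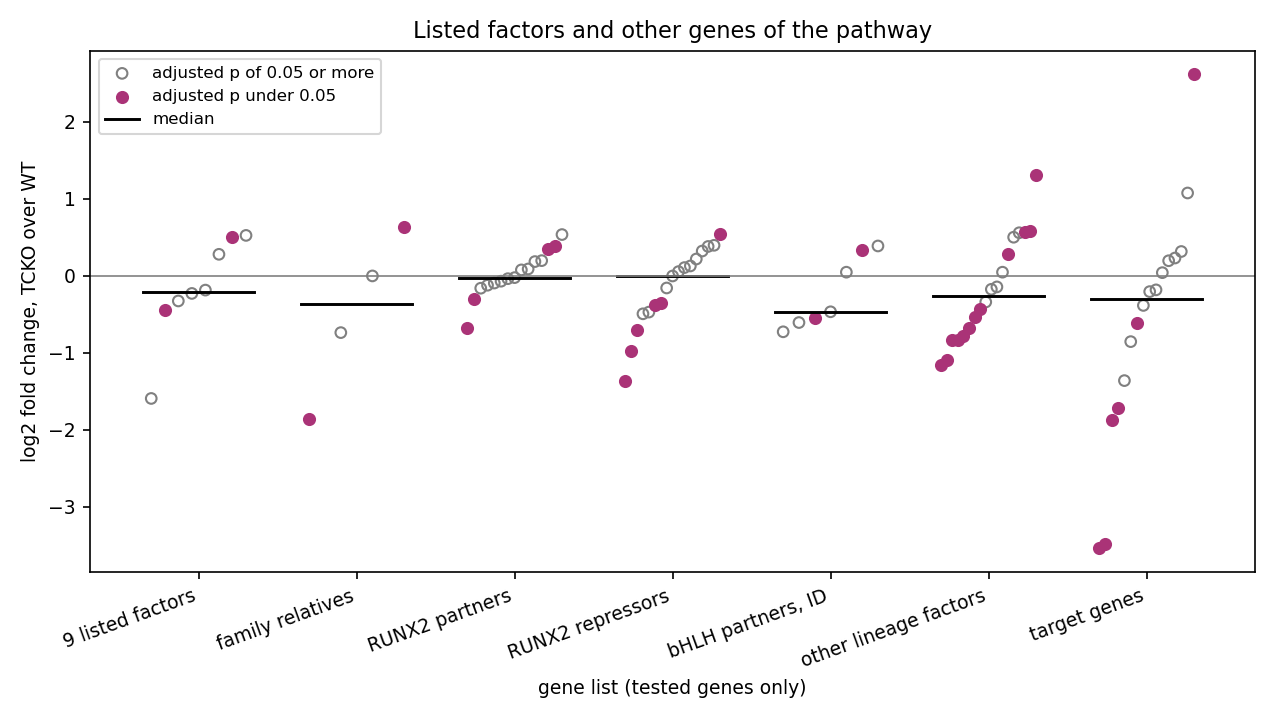
Log2 fold change (TCKO over WT) of each tested gene, for the 9 listed factors and 6 lists of genes that work with them, in rank order within a list. Filled points have an adjusted p under 0.05, and bars are medians. Most lists hold genes on both sides of 0, and the other lineage factors hold the most filled points, 8 below and 4 above.

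Of 20 other transcription factors known in bone and skull, 18 were tested, with 8 lower and 4 higher and a median log2 fold change of -0.26. Foxo1, a factor of oxidative defence in osteoblasts, fell from 50.01 ± 4.25 to 23.4 ± 0.499 CPM (SD, n = 3), for a log2 fold change of -1.10 ± 0.09 (SE, edgeR adjusted p = 0.000339). Snai2, a zinc finger repressor of mesenchyme, fell from 132 ± 10.1 to 73.9 ± 3.58 CPM, by 0.84 on the log2 scale (adjusted p = 0.000696). Sox11, a SOX factor of progenitors, rose from 11.04 ± 1.88 to 27.3 ± 2.93 CPM, by 1.31 ± 0.15 (SE) on the log2 scale (adjusted p = 0.00141). Foxc2, a forkhead factor of skeletal mesenchyme, was at -1.16 ± 0.31 (adjusted p = 0.0380) and lost its call on leaving out 5 of the 6 libraries singly (adjusted p up to 0.125, without TCKO replicate 1).

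Known targets of RUNX2 and SP7, 23 genes, of which 16 were tested, had 5 lower and 1 higher, and 7 lower and 2 higher with the replicate block. With replicates 1 and 2 summed 2 were lower and 0 higher, and with a block on the sums 4 and 1. The median log2 fold change was -0.29. Omd (osteomodulin), a matrix proteoglycan of bone, fell from 34.6 ± 11.6 to 3.10 ± 1.62 CPM (SD, n = 3), for a log2 fold change of -3.49 ± 0.41 (SE, edgeR adjusted p = 0.00151). Fgfr2, a receptor of skull growth, had 1358, 1790 and 1214 counts in the 3 WT libraries and 390, 357 and 402 in those of TCKO, for a log2 fold change of -1.87 ± 0.09 (SE, edgeR adjusted p = 4.29e-05). The phosphatase gene Alpl (-3.54, adjusted p = 0.00743) was also lower, while the matrix gene Spp1 (2.62, adjusted p = 0.00669) was the 1 gene of the list that was higher. Without WT replicate 3, its highest library, Alpl was at -2.69. Spp1 did not pass with replicates 1 and 2 summed (edgeR adjusted p = 0.123, or 0.114 with a block). The log2 fold change of Runx2 itself was -0.45.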

How the data were processed

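The deposited values are raw counts per gene, which the authors made by aligning reads to GRCm38 (Ensembl release 99) with STAR 2.7.0e and counting over exons with featureCounts 2.0.0. A directional library kit was used, but whether counting used the strand is not stated. No column (0) lacked a sample. Symbols were matched by gene identifier for 99.4% of genes.

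Counts were tested with edgeR 4.0.16 (R 4.3.3): filterByExpr left 13826 genes, libraries were scaled by TMM, and glmQLFit and glmQLFTest compared the genotypes over all 6 libraries without covariates, with Benjamini-Hochberg adjustment over all tested genes and a threshold of 0.05. Levels in CPM and RPKM were computed from the counts. The SE was derived from the F statistic. The script was tested on simulated counts.

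Replicate numbers come from the sample titles. Deviations from the group means of same-numbered WT and TCKO libraries correlated across genes at 0.204, 0.214 and 0.347, and the numbers were taken as pairs, although replicates 1 and 2 correlated as well across numbers (0.188 and 0.225).

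The factors and gene lists were chosen with earlier results of these data known. Named are all 9 factors, the 3 Tet genes, in each list the 4 genes with the largest absolute log2 fold change past the threshold, and the 3 nearest profiles of Runx2 and Sp7. The values of 1 gene that this rule names are not reported here. Alternatives were DESeq2 1.42.0, other scalings and filters, a robust fit, the replicate block, replicates 1 and 2 summed (2 against 2, also with a block) and fits that omitted 1 library. Promoter windows of 300 bases came from RefSeq.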

Additional observations from a re-analysis of the deposited data

How the results depend on the processing

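With all 6 libraries 1 factor was lower and 1 higher. The factors lower numbered 2 with no filter beyond 1 count (Runx2 and Sp7), 2 with the replicate block (11.5% of all tested genes), 0 with replicates 1 and 2 summed, 1 with the sums and a block (Sp7), and 1 to 2 when a library was left out. The factors higher numbered 2 with the replicate block (12% of all tested genes), 0 with the sums, 0 with the sums and a block, and 0 to 1 when a library was left out. With the sums, edgeR gave 1 factor lower and 1 higher at an unadjusted p under 0.05, or 2 and 2 with a block. Without WT replicate 2 it gave 3 lower and 1 higher. The share of all tested genes under this unadjusted threshold was not computed, so these counts have no background beside them. DESeq2 on all 6 libraries gave adjusted p-values of 0.000242 for Runx2 and 0.00044 for Msx2. The tested genes past the threshold in either direction numbered 2447. They numbered 2911 with no filter beyond 1 count, over a larger set of genes, and 3249 with the replicate block. With the sums they numbered 386, with the sums and a block 1150, and without 1 library 1153 to 3122. The list genes past the threshold numbered 32, and in the same order 37, 42, 8, 19 and 16 to 40. The causes were not tested, but the sums hold fewer samples. Of the ratios, that of Dlx5 to Dlx6 changed sign without TCKO replicate 1, to a log2 difference of 0.038, in a range from -0.25 over the libraries left out. The replicate block changed no call among the factors beside those of Sp7 and Twist1. Over the scalings, filters and tools, Runx2 and Msx2 kept their direction and an adjusted p under 0.05. Ranked by CPM in place of RPKM, 7 of the 9 factors kept their place by the mean over all 6 libraries, 5 in the WT order and 6 in the TCKO order. Depth limits Dlx3 and Twist2, whose counts were between 5 and 19.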
